A study of Mus musculus with 6 samples.

Results

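The homeostatic astrocyte genes, 10 genes that mark astrocytes at rest, were followed in the cerebral cortex of ageing mice. They are Slc1a2, Slc1a3 and Glul for glutamate uptake and glutamine synthesis, Gja1 and Gjb6 for gap junctions, Aqp4 for water transport, Aldh1l1 and Aldoc for metabolism, S100b for calcium binding and Fgfr3 for growth factor signalling. They were chosen by name, with earlier results of these data known, and make up 10 of the 38355 genes listed. All 10 passed the filter on low counts that left 17120 genes for testing. Polyadenylated RNA was sequenced from dissected cortical hemispheres of C57BL/6 mice, an inbred laboratory strain, in 3 samples at the age of 6 months and in 3 others at 16 months. No sample carried a transgene or received a treatment according to the labels. The study's methods give males for sequencing in the section on sorted interneurons, and the section on cortical tissue, the samples used here, gives no sex. The housing protocol gives 3 months for the younger age, whereas the titles and the other labels give 6 months, the age used here. The study counts 3 brains per age.

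Astrocytes take up the glutamate released at synapses through the transporters GLT-1 and GLAST, which Slc1a2 and Slc1a3 encode, and convert it to glutamine with glutamine synthetase, the product of Glul. Connexin 43 and connexin 30, encoded by Gja1 and Gjb6, join astrocytes into networks, and aquaporin 4 lines the endfeet on blood vessels. Aldh1l1 encodes a folate enzyme, Aldoc an aldolase of glycolysis, S100b a calcium-binding protein and Fgfr3 a receptor for fibroblast growth factors. All of these genes are widely used as astrocyte markers, although some of them are also active in other cells.

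The regions just upstream of a RefSeq transcription start of S100b, Gjb6 and Aldh1l1 are printed. They were chosen because these members had the smallest adjusted p-values of the 10 genes tested by age. S100b was lower and the others were higher at 16 months. Each sequence holds the 250 bases before the transcription start in the RefSeq annotation (GRCm38.p6), written 5′ to 3′ in the direction of the gene. The S100b region lies at chr10:76253586-76253835 on the plus strand, the Gjb6 region at chr14:57133612-57133861 on the minus strand and the Aldh1l1 region at chr6:90550543-90550792 on the plus strand. The Aldh1l1 region precedes a start inside the interval of the gene whose counts were used, chr6:90486427-90600203, and is not upstream of that interval. Capitals mark the CCAAT box, read as CCAAT or, on the other strand, as ATTGG.
S100b: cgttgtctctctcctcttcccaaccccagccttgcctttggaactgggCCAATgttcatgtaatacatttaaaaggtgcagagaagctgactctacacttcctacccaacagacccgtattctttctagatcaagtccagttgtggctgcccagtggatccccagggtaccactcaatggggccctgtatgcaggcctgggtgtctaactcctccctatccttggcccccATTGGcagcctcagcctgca
Gjb6: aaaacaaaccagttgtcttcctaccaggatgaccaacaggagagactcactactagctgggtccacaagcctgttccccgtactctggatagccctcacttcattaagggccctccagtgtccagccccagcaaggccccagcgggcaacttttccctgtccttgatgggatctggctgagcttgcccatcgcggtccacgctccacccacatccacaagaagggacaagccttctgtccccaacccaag
Aldh1l1: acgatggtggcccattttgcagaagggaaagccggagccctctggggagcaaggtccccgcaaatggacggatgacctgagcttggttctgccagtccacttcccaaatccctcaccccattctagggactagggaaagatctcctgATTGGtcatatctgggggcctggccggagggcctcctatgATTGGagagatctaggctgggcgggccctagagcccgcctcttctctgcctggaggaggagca
The S100b region held 1 copy in each orientation, the Aldh1l1 region held 2 copies of ATTGG, and the Gjb6 region held no match. The 9 members with a window read here had 11 windows, of which 5, in 5 members, held at least 1 match. Of all 32851 windows of this length 33.9% held one. GC content was 53.6% in the S100b window, 56.8% in the Gjb6 window and 59.6% in the Aldh1l1 window.

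The members differed widely in level. Compared as CPM, counts per 1000000 counts on genes after TMM normalization, per kilobase of exon, Glul stood first at 6 months, at 528 ± 10.1 (SD, n = 3), followed by Slc1a2 at 314 ± 13.8 and Aldoc at 276 ± 3.65. S100b reached 130.1 ± 4.58 and Slc1a3 85.6 ± 1.02. The lower part of the order held Gjb6 at 31.2 ± 0.174, Aqp4 at 27.9 ± 0.296, Gja1 at 22.8 ± 0.285, Fgfr3 at 18.3 ± 0.601 and Aldh1l1 at 16.1 ± 0.281. At 6 months no pair of neighbours in this order overlapped between samples. At 16 months Aqp4 and Gja1 overlapped, at 27.3 ± 2.74 and 26.6 ± 2.90 CPM per kilobase, and so did Aldh1l1 and Fgfr3, at 19.2 ± 1.46 and 16.8 ± 1.83, which had exchanged places. Dividing by the longest transcript in place of all exons raised Gja1 to 60.2 CPM per kilobase at 6 months, above Gjb6 and Aqp4, and put Slc1a3, at 164.8, above S100b.

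**Figure D1:**
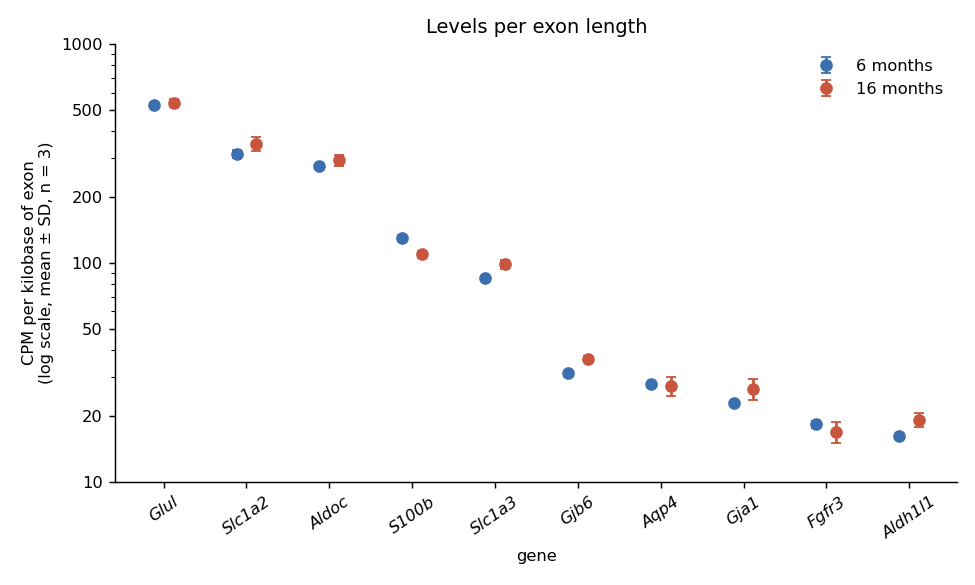
Level per kilobase of exon of the 10 genes (log axis), mean ± SD of 3 samples at 6 months (blue) and 16 months (red). Glul stands highest at both ages, and Fgfr3 and Aldh1l1 stand lowest.

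The question of the comparison was how RNA levels in the cortex differ between the ages. None of the 10 members passed the edgeR quasi-likelihood test at an adjusted p under 0.05 (Benjamini-Hochberg over all genes tested), a threshold that 286 genes or 1.67% of those tested passed. Unadjusted, 6 of the 10 members had a p under 0.05, and so did 17.4% of all genes tested. The DESeq2 Wald test called 4 of the 10, which were Slc1a3, Gjb6, Aldh1l1 and S100b, and 2.67% of the genes it adjusted. The 3 samples of 16 months lay above the 3 samples of 6 months for 5 members and below them for 1, and over all genes tested this held for 12.2% and 11.5%. The median log2 fold change of the members was 0.12, beside 0.0014 over all genes tested. In bulk tissue, fewer or more astrocytes and less or more RNA per astrocyte cannot be told apart.

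Among the genes of glutamate handling, both transporters had higher levels in every sample of 16 months than in any of 6 months. Slc1a2 (ENSMUSG00000005089, chr2:102658659-102790784) was measured at 4310, 4128 and 3949 CPM at 6 months and at 4332, 4477 and 4982 CPM at 16 months. The gap between the highest younger and the lowest older sample was small, and the third older sample stood above the rest. The difference was 11.3% (95% interval 0.979% to 22.8%) with an adjusted p of 0.243 in edgeR. Slc1a3 (ENSMUSG00000005360, chr15:8634124-8710764) was measured at 728.1, 723.8 and 740.5 CPM at 6 months and at 802, 881 and 835 CPM at 16 months. These ages were clearly separated, with a difference of 14.9% (interval 6.06% to 24.4%) and an edgeR adjusted p of 0.0914. Glul (ENSMUSG00000026473, chr1:153899944-153909723) was measured at 1762, 1784 and 1718 CPM at 6 months and at 1719, 1853 and 1791 CPM at 16 months. The samples of both ages were intermixed, and the interval of the difference ran from -5.63% to 10.01%.

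The connexin genes showed differences of similar size. Gja1 (ENSMUSG00000050953, chr10:56377330-56402513) was measured at 230.8, 236.4 and 235.1 CPM at 6 months and at 241, 278 and 300.1 CPM at 16 months. The first older sample lay close to the younger ones and the third far above them, and the difference of 16.6% (interval 3.93% to 30.9%) had an edgeR adjusted p of 0.172. Gjb6 (ENSMUSG00000040055, chr14:57123303-57133611) was measured at 83.4, 83.04 and 83.96 CPM at 6 months and at 93.8, 99.98 and 97.6 CPM at 16 months. Its younger samples differed by a coefficient of variation of 0.557%, the smallest of the 10 members, and all 3 older samples lay above them. The difference was 16.3% (interval 7.68% to 25.7%) with an edgeR adjusted p of 0.0664.

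Aqp4 (ENSMUSG00000024411, chr18:15389496-15410982) was measured at 171.8, 175.04 and 174.9 CPM at 6 months and at 152, 186 and 172 CPM at 16 months. The older samples lay below, above and among the younger ones. The interval of the difference ran from -12.3% to 9.22%, and its edgeR adjusted p was 0.860. The coefficient of variation was 1.06% at 6 months and 10.03% at 16 months.

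Of the metabolic members, Aldh1l1 (ENSMUSG00000030088, chr6:90486427-90600203) was measured at 74.1, 71.6 and 72.8 CPM at 6 months and at 93.9, 80.9 and 85.2 CPM at 16 months. All older samples lay above the younger ones, the first of them farthest. The difference of 18.9% (interval 7.97% to 31.02%) was the largest of the members, with an edgeR adjusted p of 0.0827. Aldoc (ENSMUSG00000017390, chr11:78322968-78327781) was measured at 912, 888 and 898 CPM at 6 months and at 1017, 905 and 956 CPM at 16 months. The second older sample lay among the younger ones, and the interval of the difference ran from -2.04% to 16.1%.

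S100b and Fgfr3 had the lowest fold changes of the members. S100b (ENSMUSG00000033208, chr10:76253853-76261159) was measured at 186, 193 and 199.8 CPM at 6 months and at 155, 166 and 166 CPM at 16 months. It was the only member whose older samples all lay below the younger ones, and its difference of -15.8% (interval -22.6% to -8.52%) had the smallest edgeR adjusted p of the members, 0.0549. Fgfr3 (ENSMUSG00000054252, chr5:33721674-33737068) was measured at 135.7, 128.0 and 128.5 CPM at 6 months and at 134.9, 109.5 and 117 CPM at 16 months. The first older sample stood among the younger ones, and the interval of the difference ran from -18.1% to 3.45%.

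**Figure D2:**
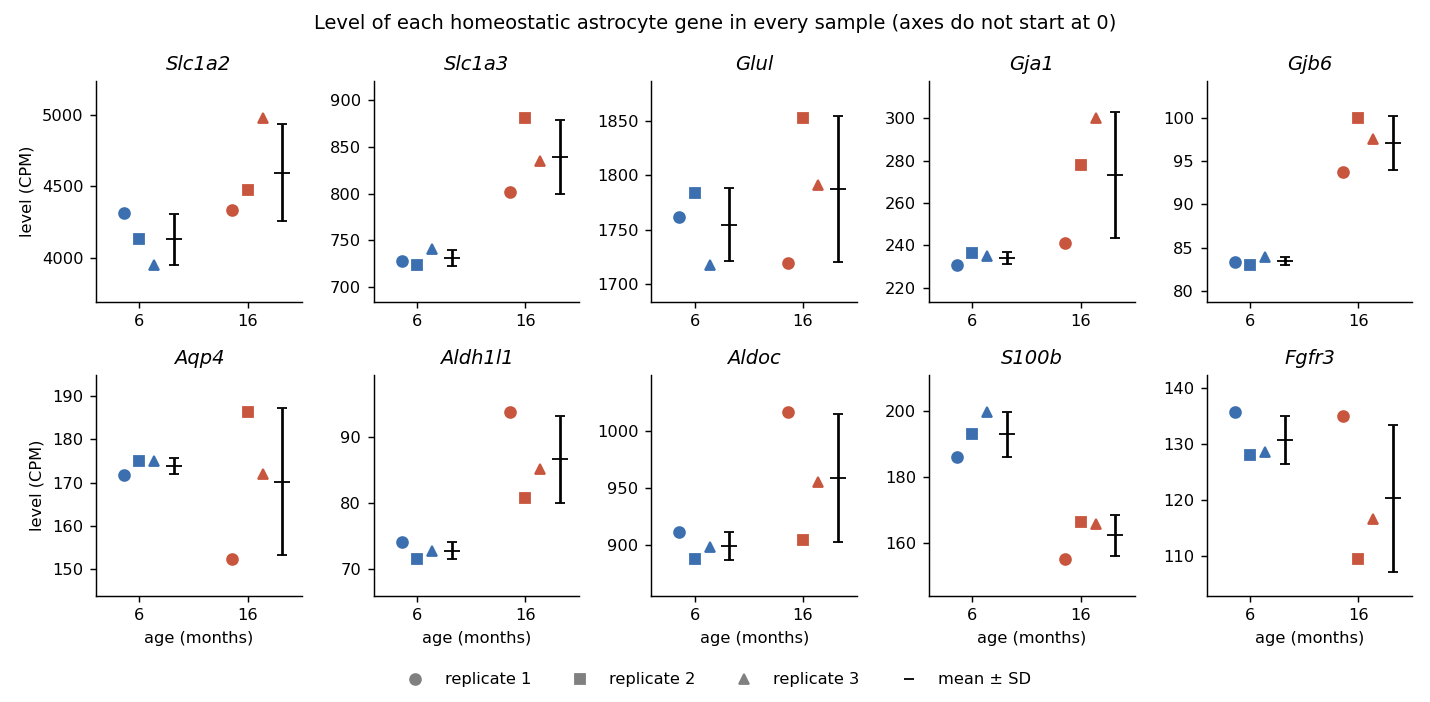
Level in CPM of each of the 10 genes in the 6 samples by age in months, with symbols for the replicates and mean ± SD per age beside them (axes do not start at 0). The ages do not overlap for Slc1a2, Slc1a3, Gja1, Gjb6 and Aldh1l1, which are higher at 16 months, and for S100b, which is lower.

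The member with the fewest counts, Aldh1l1, had 2147 to 3474 in a sample, for which counting alone gives a coefficient of variation of 1.70% to 2.16%, and Slc1a2, with the most, had 123822 to 202056. The spread of Gjb6 at 6 months, 0.557%, was below the 1.60% to 2.00% that its counts allow by counting, so its closeness in these samples is no measure of its precision. Some reads could belong to a gene on the other strand, since the strand setting of the counting is not given in the sources used here. Fgfr3 shares 998 exonic bases with G630022F23Rik, which was not analysed here, Aldh1l1 shares 499 bases with Gm15756, which had 1 to 6 counts per sample, Slc1a2 shares 189 bases with Gm13872 and Glul 116 bases with Teddm2. No other gene's transcript matched a stretch of the remaining 6 members at 97% identity over 100 bases.

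All 10 members varied more between the samples of 16 months than between those of 6 months. The median SD of their log2 levels was 0.022 among the younger and 0.095 among the older samples, and 75.5% of all genes tested also had the larger SD at 16 months. Within the older age, the difference between replicates 1 and 2 correlated with the GC content of the genes' longest transcripts. It was -0.29 on the log2 scale for Aqp4, whose longest transcript has a GC content of 41.4%, and 0.30 for Fgfr3, with 56.4%. Across the 10 members the Pearson correlation of this difference with GC content was 0.928, and across all genes tested with a value it was 0.636, where all points come from the same pair of libraries. With offsets that remove, in each sample, the dependence on GC content and length seen over all genes, the difference was 0.027 for Aqp4 and 0.069 for Fgfr3. With these offsets 8 of the 10 members, and 61.9% of all genes tested, still had the larger SD at 16 months. The test between the ages was repeated with these offsets.

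With the offsets, 6 of the 10 members passed the edgeR test, 4 of them higher and 2 lower at 16 months, beside 13.9% of all genes tested. Slc1a3 rose by 14.0% with an adjusted p of 0.000278, Gjb6 by 16.3% with 0.000621, Aldh1l1 by 15.6% with 0.000948 and Gja1 by 19.95% with 0.00219. S100b fell by 13.3% with an adjusted p of 0.000796 and Fgfr3 fell by 10.5% with 0.00552. For Slc1a2 the adjusted p was 0.0538 and for Aldoc 0.0965. The interval of the log2 fold change ran from -0.041 to 0.079 for Aqp4 and from -0.050 to 0.078 for Glul. In this fit the SD between the older samples was 0.021 for Aqp4 in log2 levels, against 0.146 without offsets, and 0.034 against 0.109 for Aldh1l1. For Gja1 it was still 0.124, where the third older sample stood 0.40 above the mean of the younger samples and the second 0.16. With offsets for GC content alone, a fit added after seeing the data, 7 of 10 passed, beside 15.2% of genes tested, and Slc1a2 was the member gained. Without offsets, the number of members called also depended on the samples included. Without 16-month replicate 1 it was 7 of 10 in edgeR, beside 5.73% of genes tested, and without 16-month replicate 2 it was 4 of 10, beside 12.7%. It was 0 of 10 without 16-month replicate 3, beside 0.335%, and also 0 without 6-month replicates 1, 2 or 3, beside 0.318%, 0.328% and 0.277%.

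**Figure D3:**
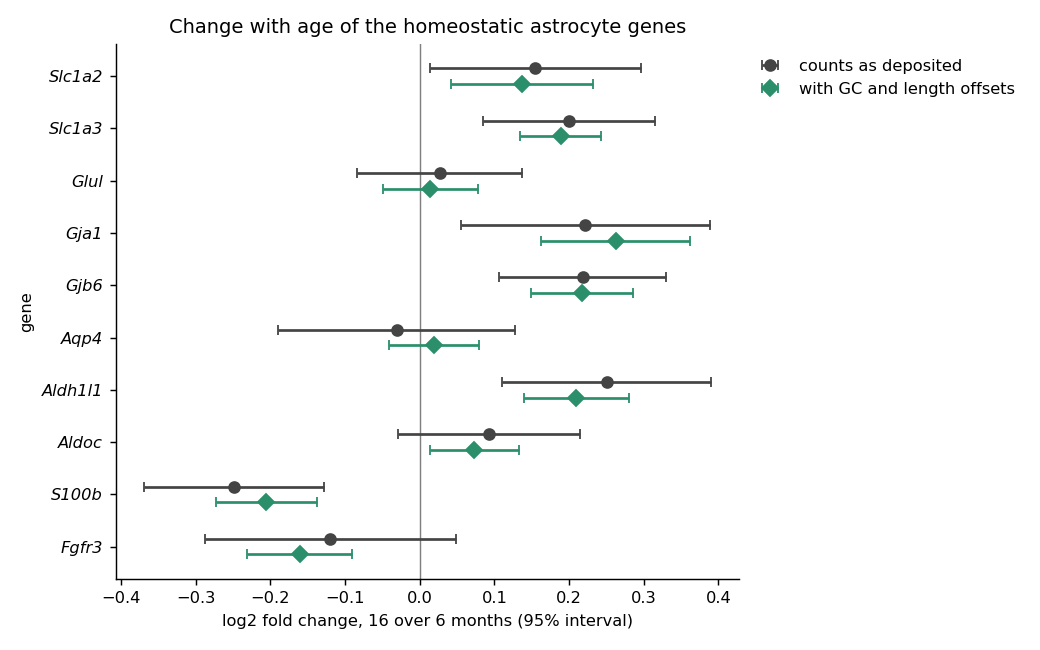
Log2 fold change at 16 over 6 months of the 10 genes with 95% intervals, from the counts as deposited (circles) and with offsets for GC content and length (diamonds). The intervals of Slc1a2, Slc1a3, Gja1, Gjb6 and Aldh1l1 lie above 0 and that of S100b below 0 in both fits. Those of Aldoc, above 0, and Fgfr3, below 0, exclude 0 only with the offsets, and Aqp4 and Glul lie near 0.

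Levels were also compared within each sample as ratios. Of 8 ratios computed, 7 of them between members, chosen after the levels were seen and therefore not tested, that of S100b to Aldh1l1 was 2.51, 2.70 and 2.74 at 6 months and 1.65, 2.06 and 1.95 at 16 months. The ratio of Aqp4 to Gja1 was 0.743 ± 0.0020 (SD, n = 3) at 6 months and 0.625 ± 0.0493 at 16 months, and that of Aldoc to Aldh1l1 was 12.3 ± 0.0536 and 11.1 ± 0.210, both without overlap. The ratio of Gja1 to Gjb6 was 2.81 ± 0.0395 and 2.81 ± 0.254, and that of Slc1a2 to Slc1a3 was 5.65 ± 0.297 and 5.48 ± 0.449, both with overlapping ages. Glul to Slc1a2 stood at 0.425 ± 0.0144 and 0.390 ± 0.0278, and Fgfr3 to S100b at 0.678 ± 0.0448 and 0.744 ± 0.111, also with overlap.

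The genes around each member in its pathway were read from lists and gave few calls in edgeR on the counts as deposited. Their counts with the offsets stand beside the 13.9% of all genes tested that passed in that fit. Of 19 genes for the handling of glutamate, GABA and other amino acids, 0 passed the threshold (5 at an unadjusted p under 0.05, 2 in DESeq2), 6 passed with the offsets, and the median log2 fold change was 0.057. Abat, the GABA transaminase, had a log2 fold change of 0.18 (adjusted p = 0.0934). Of 11 connexins, pannexins and partners, 0 passed (3 unadjusted, 0 in DESeq2) and 4 passed with the offsets, with a median of 0.032. Its 3 most abundant genes were the scaffold gene Tjp1 at 0.096 (adjusted p = 0.387), Panx2 at -0.012 (0.965) and the oligodendrocyte connexin gene Gjc3 at -0.17 (0.289). Of 17 genes of water and potassium transport and endfoot anchoring, 0 passed (9 unadjusted, 2 in DESeq2) and 9 passed with the offsets, 6 of them higher, and the median was 0.12. Its abundant genes included the sodium pump subunit gene Atp1b2 at 0.17 (adjusted p = 0.223) and the potassium channel gene Kcnj10 at 0.18 (0.111).

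Of 24 genes for glycogen, glycolysis, lactate and folate, 1 passed in edgeR, and with the offsets 8 passed upward and 2 downward. Ppp1r3c, which targets protein phosphatase 1 to glycogen, fell from 93.03, 96.6 and 89.9 CPM at 6 months to 72.4, 78.9 and 72.99 CPM at 16 months, a log2 fold change of -0.32 with an adjusted p of 0.0256. The most abundant genes of this list were Aldoa, the aldolase of muscle and most other tissues, at 0.13 (adjusted p = 0.348), the pyruvate kinase gene Pkm at 0.055 (0.665) and the lactate dehydrogenase gene Ldhb at 0.046 (0.717). Of 20 genes of the FGF family, its receptors and their targets, 1 passed in edgeR (8 unadjusted, 1 in DESeq2). With the offsets 5 passed upward and 2 downward. On the counts as deposited the transcription factor gene Etv4 passed in edgeR, falling from 11.5, 10.8 and 11.5 CPM to 9.05, 8.52 and 9.11 CPM (adjusted p = 0.0420). In DESeq2 its adjusted p was 0.0522, and the gene called there was Fgf13, at 0.0449. Etv5, a relative of Etv4, had a log2 fold change of 0.17 with an edgeR adjusted p of 0.152. The most abundant genes were Spred1, an inhibitor of the Ras pathway, at 0.032 (adjusted p = 0.857), Fgf12 at -0.13 (0.537) and Fgf13 at 0.19 (0.0935).

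Of 13 S100 genes and partners, 10 were tested, and 1 passed. S100a16, which encodes another calcium-binding protein of the family, fell from 65.1, 66.7 and 65.6 CPM to 56.9, 53.5 and 55.4 CPM, with a log2 fold change of -0.25 and an adjusted p of 0.0418. S100a1 was at -0.21 (adjusted p = 0.0994) and S100pbp at 0.038 (0.813). The median of this list, -0.16, was the only negative one among the 6 pathway lists, and with the offsets it was -0.069, with 1 gene passing.

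**Figure D4:**
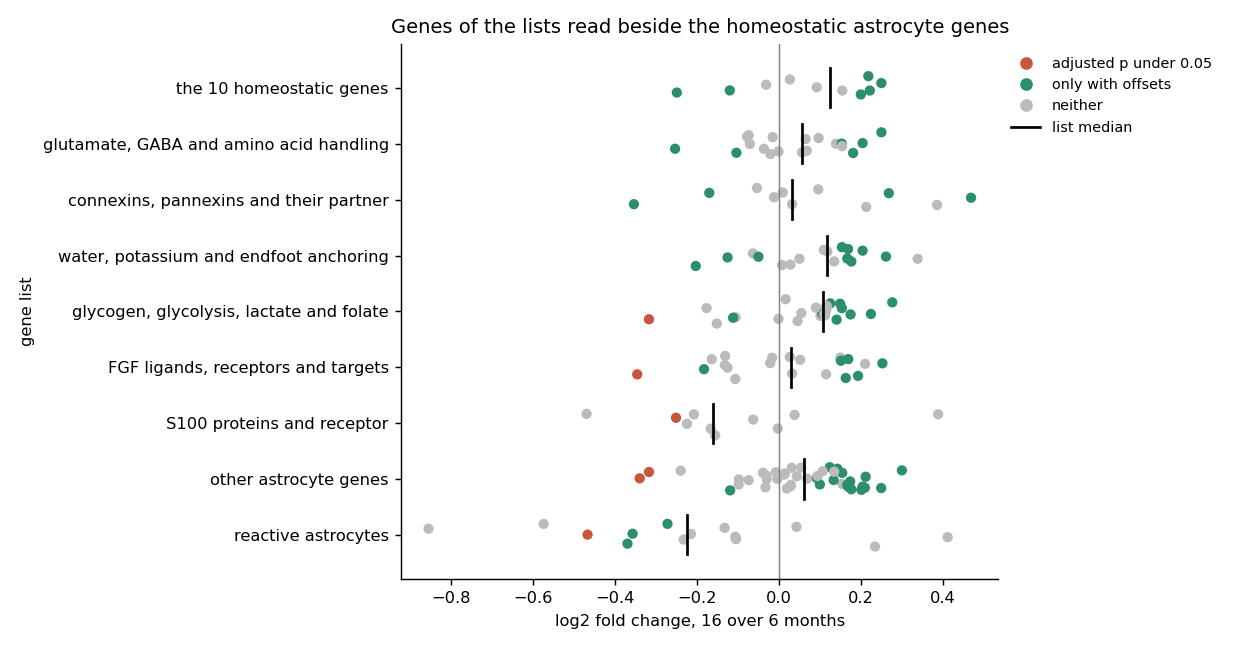
Log2 fold change at 16 over 6 months of the genes tested in each of the lists shown, with red for an adjusted p under 0.05 in edgeR, green for genes that passed only with offsets for GC content and length, grey for neither, and a line for the median. The 10 homeostatic genes hold no red point and have a median of 0.12, and the S100 list and the reactive astrocyte list have medians below 0.

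Other astrocyte genes and markers of other cells were read beside these results. Of 42 further astrocyte genes, 2 passed, both lower at 16 months: Ppp1r3c and the peptide transporter gene Slc15a2, at 41.7, 43.3 and 41.9 CPM and then 31.3, 37.04 and 31.8 CPM (adjusted p = 0.0468). With the offsets 19 of the 42 passed, 16 of them higher, beside 13.9% of all genes tested. Of 14 genes of reactive astrocytes tested, 1 passed: Gfap, the intermediate filament gene that rises in reactive astrocytes, fell from 262, 253 and 262 CPM to 196, 176 and 190 CPM, with a log2 fold change of -0.47 and an adjusted p of 0.00332. DESeq2 called 3 genes of that list and edgeR with the offsets 4, all 4 lower, while 3 of the 14 had a log2 fold change above 0. The summed level of that list was 339 to 350 CPM at 6 months and 248 to 275 CPM at 16 months. Gfap alone made up most of it, with means of 259 and 187 CPM. The ratio of Gfap to Aldh1l1 was 3.55 ± 0.0399 (SD, n = 3) at 6 months and 2.16 ± 0.0737 at 16 months.

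The lists of neighbouring brain regions and coverings also held genes that passed the edgeR test. Of 8 thalamic genes, 5 were higher at 16 months: Shox2, Prkcd, Tcf7l2, Plekhg1 and Calb2, and their list summed to 236 to 245 CPM at 6 months and 248 to 284 CPM at 16 months. Shox2 had 0.0853 to 0.133 CPM in the younger and 1.45 to 1.90 CPM in the older samples. Of 7 dentate gyrus genes, Dsp, Lct and C1ql2 were higher, with sums of 203 to 209 CPM and 231 to 266 CPM. Of 6 meningeal fibroblast genes, Igf2 was lower, with sums of 96.8 to 102 CPM and 75.1 to 78.7 CPM. Of 8 genes of ependyma and choroid plexus tested, Ttr was higher and Ccdc153 lower, with sums of 27.3 to 27.99 CPM and 33.7 to 36.6 CPM. With the offsets, 6 of the 8 thalamic and 5 of the 7 dentate gyrus genes passed. So did 3 of the 6 meningeal genes and 2 of the 8 of ependyma and choroid plexus. The part of these lists in the results of the 10 genes was not tested.

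Lists of other cell types were read in the same way, first on the counts as deposited. Of 10 neuronal genes, 0 passed (2 unadjusted, 0 in DESeq2), with sums of 10143 to 10265 CPM at 6 months and 10006 to 10874 CPM at 16 months. In the oligodendrocyte lineage Gpr17 and Neu4 were higher among 7 precursor genes (sums of 238 to 244 CPM and 273 to 326 CPM), and Cldn11 was higher and Aspa lower among 10 genes of mature cells (7121 to 7191 CPM and 7133 to 7193 CPM). Of 8 microglial genes Aif1 was lower, with sums of 397 to 410 CPM and 408 to 420 CPM. The lists of endothelium (159 to 161 CPM and 152 to 156 CPM), of pericytes and smooth muscle (156 to 164 CPM and 146 to 152 CPM) and of the cerebellum (8.60 to 9.28 CPM and 8.93 to 10.1 CPM) held 0 genes called by edgeR or DESeq2, with 3, 1 and 1 at an unadjusted p under 0.05. The 4 telencephalic astrocyte genes (305 to 319 CPM and 281 to 325 CPM) and the 3 tested of 5 non-telencephalic ones (54.2 to 60.1 CPM and 54.2 to 62.6 CPM) also held 0 called by either, with 0 and 1 unadjusted. With the offsets, edgeR called 4 of 10 neuronal, 5 of 7 precursor, 7 of 10 oligodendrocyte and 2 of 8 microglial genes. It called 3 of 8 endothelial, 1 of 8 pericyte and smooth muscle, and 0 of 4 tested cerebellar genes. Among astrocyte genes by region it called 1 of 4 telencephalic ones and 2 of 3 tested non-telencephalic ones. These counts stand beside 13.9% of all genes tested. No listed gene with a row was at 0 in every sample.

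The mean standardized profile of the 10 members over the 6 samples does not describe each member. It includes S100b, which was lower in every older sample. The genes outside the list whose levels followed this mean most closely were found by the Pearson correlation of log2 CPM with it. Among 10258 genes with a mean of at least 10 CPM, these were Dab1 (r = 0.997), Ctnnd1 (0.993), Zbtb20 (0.991), Elavl1 (0.991) and Bptf (0.990). Zbtb20, which encodes a transcription factor, had 194.6, 194.3 and 182 CPM in the younger samples, 219, 248 and 271 CPM in the older ones, and passed the edgeR test (adjusted p = 0.0439). An r of at least 0.9 was reached by 300 of the genes. With the offsets none of these 5 was among the first 5, which were Arf4, Amotl1, Cnksr2, Fgfr1 and Ripor2.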

How the data were processed

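The study sequenced polyadenylated RNA (TruSeq, paired-end) from cortical hemispheres. Per its methods, reads were trimmed, aligned to mm10 with STAR and counted per Ensembl gene with HTSeq, whereas the tools listed with the samples are CASAVA 1.8.2, STAR 2.3.0e and featureCounts 1.5.0-p1. The deposited values are raw counts of reads on each gene, which the authors did not normalize. Summary lines of unassigned reads (22.0% to 27.7% of reads had no feature) were left out.

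Identifiers were matched to GENCODE of GRCm38, the same build, for 36602 of 38355 genes. Counts were tested with edgeR 4.0.16 (R 4.3.3), using TMM normalization, filterByExpr, the quasi-likelihood test by age without covariates, and Benjamini-Hochberg adjustment at 0.05. Log2 values used a prior count of 2. Offsets were medians over 20 bins of GC content and of length, both of each gene's longest transcript. They were computed per sample from the 98.7% of tested genes that had both. DESeq2 1.42.0, other normalizations and filters, a robust fit, a replicate block and leaving out each sample were alternatives. Shared sequence was searched with blastn 2.17.0, and figures were drawn with matplotlib 3.10.9. Totals of 29797253 to 46519280 counts per sample gave a common biological coefficient of variation of 6.40%.

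The members and lists were chosen with earlier results of these data known. The text names all 10 members, and in each pathway list the called genes and the 3 most abundant ones. It also names the called genes of each marker list and the 5 genes most like the members' mean profile. Some genes that this rule names are not reported here. Etv5 was named after its values were seen.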

Additional observations from a re-analysis of the deposited data

How the results depend on the processing

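The 10 members gave 180 log2 fold changes over all alternatives, of which 122 kept their direction and their side of the threshold, 54 kept their direction and passed it, and 4 turned their direction. The 4 were Aqp4 with the GC and length offsets (0.019), with offsets for GC content alone (0.042), with the offsets and the replicate block (also 0.019) and without 16-month replicate 1 (0.043), where its values with 1 sample left out ran from -0.10 to 0.043. The cause was not tested. DESeq2's size factors, at least 10 counts in every sample and the robust fit called 0 members among 289, 270 and 281 genes in edgeR. Upper quartile normalization called 291 genes and 1 member. Without a filter on low counts 648 genes and 2 members were called. DESeq2's Wald test, without or with a prior on fold changes, called 470 genes and 4 members. The offsets called 2375 genes and 6 members, and those for GC content alone, added after seeing the data, 2595 genes and 7 members. Leaving out 1 sample gave 48 to 2211 genes and 0 to 7 members: 55, 57 and 48 genes without 6-month replicates 1, 2 and 3, and 995, 2211 and 58 without 16-month replicates 1, 2 and 3. With 16-month replicate 3 as the only older sample, a fit added after seeing the data that assumes it varies like the younger ones, 1786 genes and 7 members were called.

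Same-numbered samples deviated together with r = 0.180, 0.0958 and 0.0351 across genes, and differently numbered ones with r from -0.133 to 0.0379. Before the offsets every sample except 16-month replicate 3 correlated best with its own number. That sample correlated best with 6-month replicate 2 (0.0379) before the offsets and with its own number after them (0.0333). After the offsets, 6-month replicate 2 correlated best with 16-month replicate 3 (0.0289), and 16-month replicate 2 with 6-month replicate 3 (0.0247). The main test did not use the numbers as pairs, and whether same-numbered samples share a step was not tested. As a block, the replicate number called 783 genes and 4 members, and with the offsets 3135 genes and 8 members.

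Limits were 3 samples per age, uncertain pairing and a strand setting that is not given.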
